A study of Danio rerio with 6 samples.

Results

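Hox genes encode homeodomain transcription factors that lie in clusters, and they were examined here in whole zebrafish embryos exposed to a short-chain perfluorinated sulfonamide. The table of 24462 gene identifiers held 48 Hox genes, found by gene name and ordered by paralogue group from 1 to 13. Of these, 15 carried a zebrafish name with the suffix a or b in the gene-name table. The other 33 stood there under the symbol without a suffix, such as HOXB2, and were taken as members because RefSeq lists a zebrafish gene of that name with a suffix. For 23 of them only 1 RefSeq name was left, which is used here (hoxb2a), and 10 identifiers that share 5 symbols could carry either of a pair of names and are given with their identifiers.

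The exposed group was held in 47 µM perfluorobutane sulfonamide (FBSA) from 8 h after fertilization, and the control group in medium with no FBSA. Both groups were Tropical 5D wild-type embryos freed of the chorion at 4 h, both had 0.5% methanol, and both were harvested whole at 48 h. There were 3 libraries a group, made from pools of 10 embryos, so a value is an average over animals. The comparison asks how exposure through early development altered transcript levels.

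In vertebrate embryos the Hox genes of a cluster are switched on in the order in which they lie along the chromosome. Low-numbered genes act in the hindbrain and pharyngeal arches, middle ones in the trunk, and high-numbered ones in the posterior body, tail and fins. Zebrafish keep duplicated clusters, called hoxaa, hoxab, hoxba, hoxbb, hoxca, hoxcb and hoxda, so most paralogue groups have several members. Retinoic acid induces the low-numbered genes, Polycomb proteins keep Hox genes silent where they should be off, Trithorax proteins keep them on, and the proteins bind DNA together with cofactors of the Pbx and Meis families.

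The libraries were 3′ RNA sequencing libraries with 23906021 to 33356411 reads in genes. Levels are normalized counts, meaning reads of a gene divided by the size factor of the library. A 3′ read stands for a transcript end and is not divided by length, so counts are compared between libraries for the same gene and not between genes. On the first principal component of all genes tested, which held 34.3% of the variance, FBSA replicate 2 (53.95) and control replicate 2 (−65.53) were the extremes. Of the matched markers of neurons, motor neurons, neural progenitors, fast muscle, blood and neural crest, 0 were without reads in all 6 libraries.

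Of the 48 Hox genes, 43 reached 10 normalized counts in 3 or more libraries and were tested, and 41 had that level in all 6 libraries. None rose or fell with FBSA at a Benjamini-Hochberg adjusted p under 0.05 over all 16890 genes tested (limma), where 0.705% of all genes were called, 0.568% higher and 0.136% lower. The smallest adjusted p of a Hox gene was 0.112. With limma-voom 0 Hox genes passed as well. At an unadjusted p under 0.05, 4 Hox genes were higher and 0 lower with either tool, against 7.34% of all genes higher and 6.25% lower in the limma fit. Of these 4, 3 were among the 14 tested genes with a suffix in the gene-name table and 1 among the other 29. The 3 FBSA libraries lay wholly above the 3 controls in 5 Hox genes and wholly below in 2, which is 16.3% of the 43 against 19.9% of all genes tested (10.0% above and 9.91% below). The median log2 fold change of the Hox genes was 0.09, on the log2(normalized count + 1) scale, beside −0.0009 for all genes tested. It was positive in 31 of the 43 and negative in 12, so 72.1% were positive, against 49.8% of all genes tested. This difference in share was not tested. In whole embryos fewer cells of a type and less RNA per cell cannot be told apart.

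**Figure D1:**
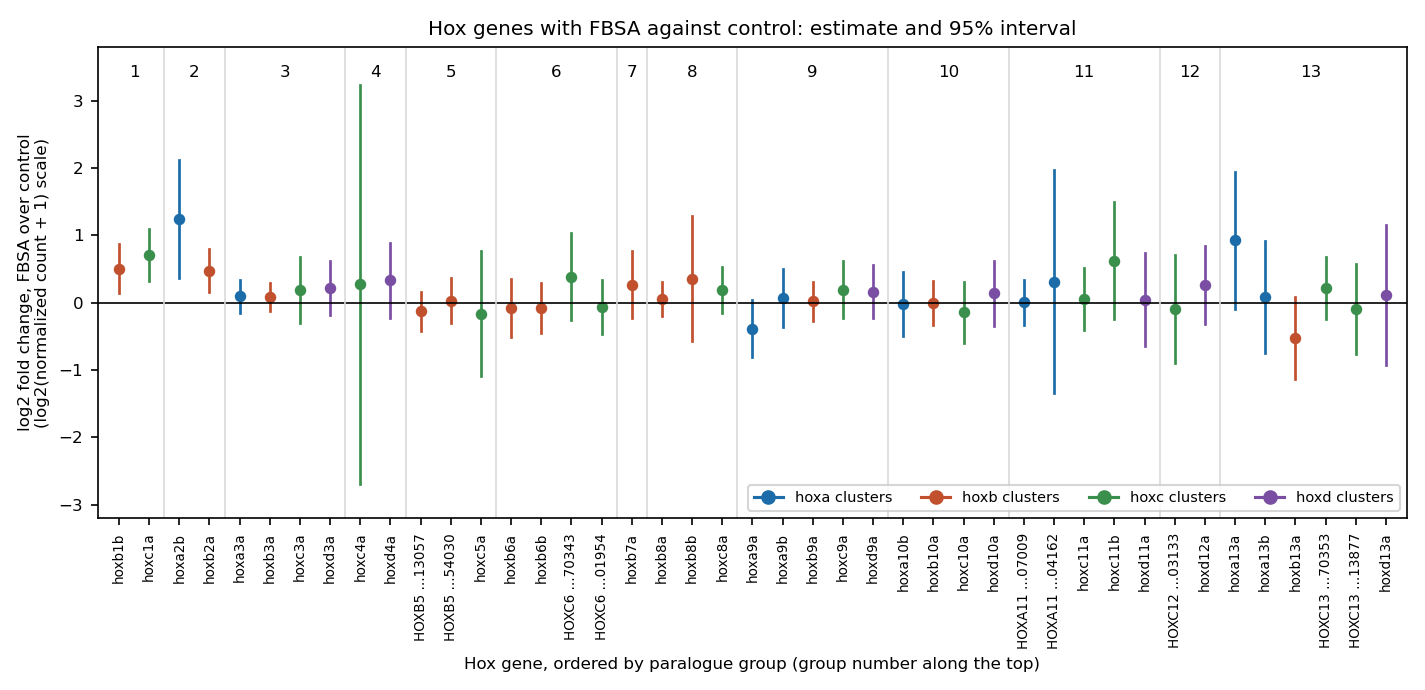
Log2 fold change with FBSA over control for the 43 tested Hox genes, ordered by paralogue group (numbers along the top), with points for the estimate, bars for the 95% interval and colours for the hoxa to hoxd clusters. The intervals of hoxb1b, hoxc1a, hoxa2b and hoxb2a, in groups 1 and 2, lie above 0, and those of the other 39 genes include 0.

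The 4 Hox genes with an unadjusted p under 0.05 were the tested members of paralogue groups 1 and 2, and this pairing of groups was drawn after the values were seen. They come from different clusters, hoxb1b from hoxbb, hoxc1a from hoxca, hoxa2b from hoxab and hoxb2a from hoxba. Each had 10 or more normalized counts in every library of both groups.

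The gene hoxc1a, a group 1 paralogue, had 580.1, 696 and 437 normalized counts in the FBSA libraries, against 360.5, 313 and 355.5 in the control libraries. The lowest FBSA library was above the highest control. The group means were 571 ± 130 with FBSA and 343 ± 26.0 in control (SD, n = 3 each), a log2 fold change of 0.71 ± 0.18 SE, or 1.64-fold (limma adjusted p = 0.112).

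Transcripts of hoxb1b, which patterns the early hindbrain in zebrafish, numbered 851, 879.6 and 625 normalized counts with FBSA, against 613, 461 and 578 in control. The groups did not overlap, although FBSA replicate 3 lay close to control replicate 1. Its log2 fold change was 0.50 ± 0.17 SE, or 1.42-fold (limma adjusted p = 0.216). In the RefSeq annotation of a later assembly hoxb1b overlaps hoxb5b and hoxb6b.

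The paralogues hoxa2b and hoxb2a give the second pharyngeal arch its identity in zebrafish. Normalized counts of hoxa2b were 246, 249 and 159.5 with FBSA and 150.1, 40.3 and 119 in control. All 3 FBSA libraries were above all 3 controls, and control replicate 2 was far below the other controls. The log2 fold change of 1.24 ± 0.40 SE, or 2.36-fold, had a 95% interval of 0.36 to 2.12 (limma adjusted p = 0.203), and without control replicate 2 it was 0.67 (limma adjusted p = 0.306).

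For hoxb2a the FBSA libraries held 523, 572 and 476 normalized counts and the control libraries 351, 387 and 387. The spread within groups was small, with means of 523 ± 48.1 with FBSA and 375 ± 20.6 in control (SD, n = 3 each), and the groups did not overlap. Its log2 fold change was 0.48 ± 0.15 SE, or 1.39-fold (limma adjusted p = 0.182). In all 4 genes FBSA replicate 2 was the highest and FBSA replicate 3 the lowest of the FBSA libraries.

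**Figure D2:**
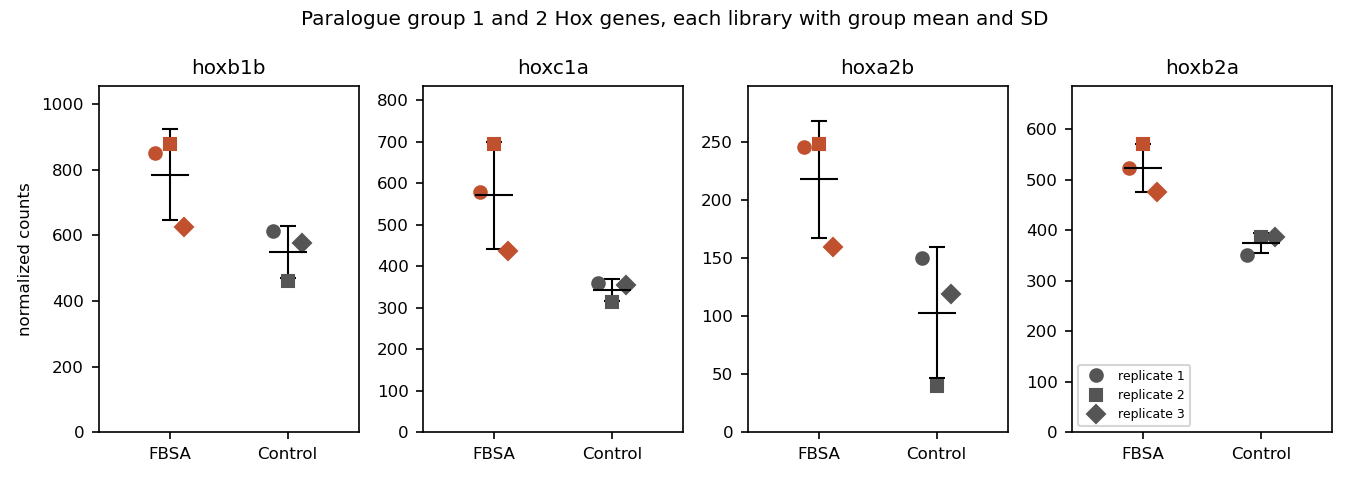
Normalized counts of hoxb1b, hoxc1a, hoxa2b and hoxb2a in each library (points, shape by replicate number), FBSA at the left of each panel and control at the right, with the group mean and SD. The FBSA points lie above the control points in each gene, and control replicate 2 of hoxa2b, at 40.3, is the lowest point of that panel.

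The other members of group 1 were near the limit of detection and were not tested. The gene hoxb1a, which specifies a segment of the hindbrain in zebrafish, had 0, 2 and 3 reads in the FBSA libraries and 0 reads in each control library. A count of 0 allows up to 3 reads, or 2.52 to 3.56 normalized counts depending on the control library, so no fold is given. For hoxa1a the FBSA libraries held 10, 9 and 10 reads and the control libraries 13, 0 and 5.

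Groups 3 and 4, which act in the posterior hindbrain and anterior spinal cord, had positive but small log2 fold changes in all 6 tested members, from 0.08 to 0.33. None passed, and the smallest adjusted p was 0.600 (limma). Each of these 6 overlaps another Hox gene in the RefSeq annotation of a later assembly, hoxd3a and hoxd4a each other, so their separate values are uncertain. For hoxb3a the FBSA libraries held 3308, 3365 and 3230.4 normalized counts and the control libraries 3108, 3277 and 2996. The groups overlapped, and the 95% interval of the log2 fold change was −0.13 to 0.29. Its paralogue hoxa3a also overlapped between the groups, with 1186, 1215 and 1237 normalized counts with FBSA against 1082, 1221 and 1107 in control.

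In hoxd3a the 3 FBSA libraries, at 197, 205 and 191 normalized counts, lay above the control libraries at 172, 158 and 179. The gap was small, and the log2 fold change of 0.22 ± 0.19 SE did not pass (limma adjusted p = 0.636). The neighbour hoxd4a had 120.3, 231 and 179 normalized counts with FBSA and 148, 117 and 143 in control, so its groups overlapped. For hoxc3a the values were 242, 314 and 196 with FBSA and 216, 174 and 269 in control, again with overlap.

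Reads of hoxb4a and hoxc4a were few. The first had 8, 0 and 6 reads in the FBSA libraries and 0, 2 and 5 in the control libraries and was not tested. With 18.2, 0 and 14.2 normalized counts with FBSA against 16.8, 8.3 and 0 in control, hoxc4a had a 95% interval of −2.68 to 3.23. Both genes, like 16 members in all, overlap another Hox gene in the RefSeq annotation, and for the 2 identifiers named HOXC6 this depends on which is which. How reads in overlaps were counted is not given in the sources used here, so the separate values of these genes are uncertain.

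Groups 5 to 8, which act in the trunk, held log2 fold changes of both signs. Of the 11 tested members 6 had a positive and 5 a negative log2 fold change, with a median of 0.03 and a range of −0.16 to 0.39. In none of them did the groups lie apart, and the smallest adjusted p was 0.599 (limma). The gene hoxb8a had 1324, 1347 and 1206 normalized counts with FBSA against 1201, 1352 and 1175 in control, with a 95% interval of −0.20 to 0.31. For HOXB5 (ENSDARG00000013057) the values were 1100.4, 870.2 and 1008 with FBSA and 1021, 1197 and 1027 in control.

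The other HOXB5 identifier (ENSDARG00000054030) had 467, 474 and 515 normalized counts with FBSA and 395, 499 and 538 in control, so both copies overlapped between the groups. In hoxb6b they were 553, 446 and 444 with FBSA against 456, 626 and 449.7 in control, and in hoxb6a 214, 283 and 207 with FBSA against 245, 286 and 209 in control. HOXC6 (ENSDARG00000070343) had the highest estimate of these groups, 0.39 ± 0.30 SE, with 115, 102 and 122 normalized counts with FBSA and 55.3, 115 and 99.9 in control. Control replicate 1 was the only low library, and the log2 fold change was 0.07 when it was left out.

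Of the other HOXC6 identifier (ENSDARG00000101954) 194, 237 and 210.3 normalized counts were found with FBSA and 251, 219 and 202 in control. The genes hoxb7a and hoxc8a had log2 fold changes of 0.27 ± 0.23 SE and 0.19 ± 0.16 SE, and their groups overlapped. In hoxb8b the libraries scattered within both groups, with 37.2, 101.4 and 117 normalized counts with FBSA and 48.6, 48.6 and 87.4 in control. Counts of hoxc5a were low, at 33.8, 17.8 and 40.6 with FBSA and 31.9, 32.0 and 34.1 in control. The gene hoxa5a was not tested, with 5, 4 and 7 reads with FBSA and 9, 1 and 6 in control. In the RefSeq annotation hoxa5a overlaps hoxa3a and hoxc5a overlaps hoxc3a, so these low counts are uncertain.

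**Figure D3:**
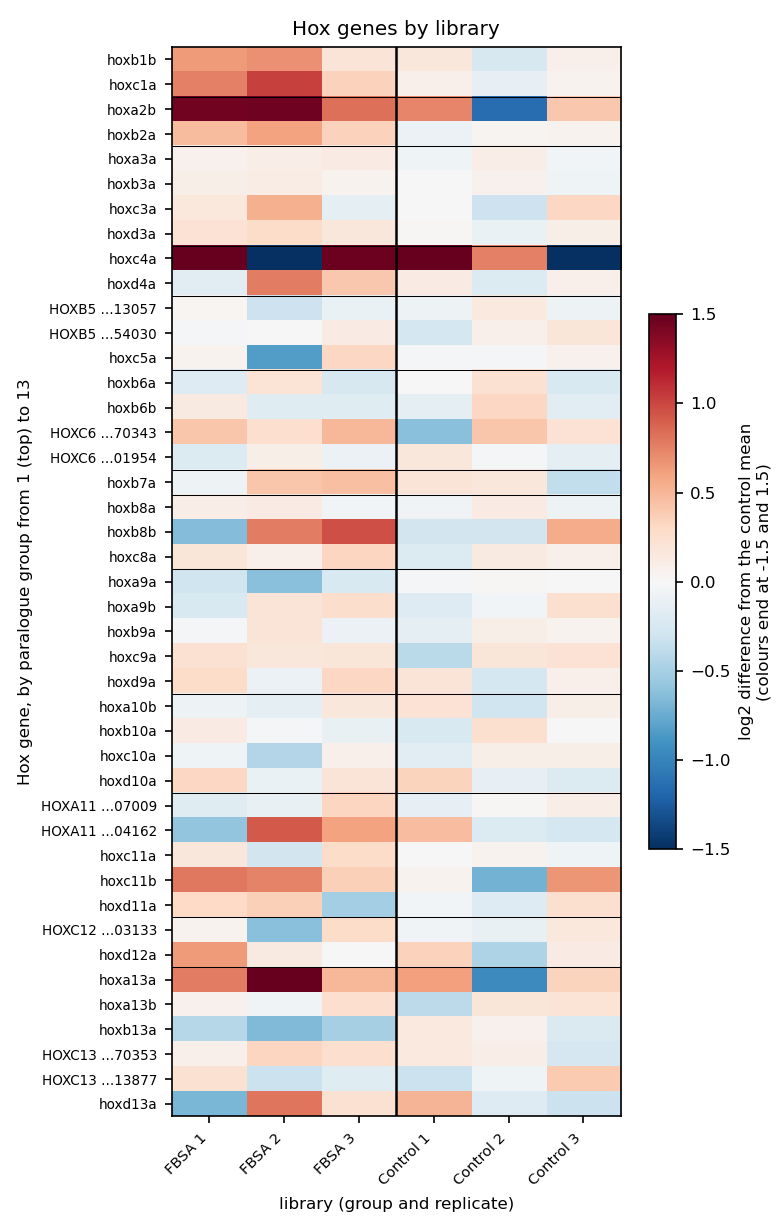
Log2 difference from the control mean for the 43 tested Hox genes (rows, paralogue group 1 at the top to 13 at the bottom) in each of the 6 libraries (columns, FBSA at the left of the line and control at the right), with colours that end at 1.5 in either direction. The rows of groups 1 and 2 at the top are higher in the 3 FBSA columns than in the control columns, while rows further down hold both signs in both groups. Cells of hoxc4a, with 0 reads in some libraries, reach the end of the colours in both directions. The cell of hoxa13a in FBSA replicate 2 (1.52) also reaches it.

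Groups 9 to 13, which pattern the posterior trunk, tail and fins, held 22 tested members with a median log2 fold change of 0.07. Of these, 15 were positive and 7 negative, and 0 passed (smallest limma adjusted p = 0.416). In 2 the FBSA libraries lay wholly below the controls, 9.09% of these members, against 9.91% of all genes tested. The first was hoxa9a, with 168, 134 and 177 normalized counts with FBSA against 205, 209.9 and 208 in control. The control libraries were close together, and the log2 fold change was −0.39 ± 0.20 SE (limma adjusted p = 0.417).

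The second was hoxb13a, a member of the group whose genes are linked to the end of the body axis. Its FBSA libraries held 58.9, 49.8 and 55.9 normalized counts and its control libraries 88.0, 83.0 and 68.1. The groups did not overlap, and the log2 fold change was −0.53 ± 0.28 SE (limma adjusted p = 0.443). In the other direction hoxa13a, which acts in fins, had 49.3, 83.5 and 40.6 normalized counts with FBSA and 44.4, 14.2 and 36.3 in control. The groups overlapped, FBSA replicate 2 was the highest and control replicate 2 the lowest library, and the log2 fold change was 0.93 ± 0.47 SE (limma adjusted p = 0.416), with a range of 0.15 to 1.24 as libraries were left out.

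The other members of group 13 overlapped between the groups. The paralogue hoxa13b had 33.8, 31.0 and 38.6 normalized counts with FBSA and 24.3, 36.8 and 37.5 in control, and hoxd13a, also known from fins, 17.3, 50.7 and 33.5 with FBSA against 41.1, 24.9 and 22.7 in control. HOXC13 (ENSDARG00000070353) had 148, 175.5 and 168 normalized counts with FBSA and 156, 150.6 and 118 in control. HOXC13 (ENSDARG00000113877) averaged 65.0 ± 13.7 normalized counts with FBSA and 69.8 ± 18.1 in control (SD, n = 3 each).

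The difference between hoxa9a and its paralogues of group 9 was not tested. Their log2 fold changes were 0.08 ± 0.20 SE in hoxa9b, 0.02 ± 0.13 SE in hoxb9a, 0.19 ± 0.20 SE in hoxc9a and 0.16 ± 0.18 SE in hoxd9a. Counts of hoxb9a, 898, 1053 and 862 with FBSA against 830.1, 979 and 956 in control, bounded its log2 fold change between −0.26 and 0.31. In group 10 the log2 fold changes ran from −0.14 in hoxc10a to 0.14 in hoxd10a, with hoxa10b at −0.02 ± 0.22 SE and hoxb10a at 661, 598 and 562 normalized counts with FBSA against 519, 716 and 603 in control.

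In groups 11 and 12 all tested members overlapped between the groups. HOXA11 (ENSDARG00000007009) had 639, 671 and 903 normalized counts with FBSA and 664, 737 and 779 in control, a log2 fold change of 0.01 ± 0.16 SE. Its partner HOXA11 (ENSDARG00000104162) reached only 4.33 to 14.1 normalized counts with FBSA and 5.68 to 10.1 in control. The highest estimate was that of hoxc11b, at 62.3, 60.1 and 45.7 normalized counts with FBSA against 36.9, 21.4 and 56.8 in control (log2 fold change 0.63 ± 0.40 SE, limma adjusted p = 0.526), with a range of 0.22 to 0.96 as libraries were left out. The log2 fold changes of hoxc11a, hoxd11a and HOXC12 (ENSDARG00000103133) were 0.06 ± 0.21 SE, 0.05 ± 0.32 SE and −0.10 ± 0.37 SE. For hoxd12a the values were 209, 146 and 134 with FBSA and 169, 96.1 and 145 in control. HOXC12 (ENSDARG00000070352) was not tested, with 4, 0 and 2 reads with FBSA and 9, 0 and 0 in control.

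The precision differed between members. In 39 of the 43 the 95% interval of the log2 fold change included 0, in 32 it lay within a 2-fold change in either direction, and in 16 within 1.5-fold. In the others, among them hoxc4a, hoxa13a and hoxd13a, the interval reached past a 2-fold change, which these libraries therefore do not bound.

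The classes planned were groups 1 to 4, 5 to 8 and 9 to 13. Their median log2 fold changes were 0.30 over 10 tested genes, 0.03 over 11 and 0.07 over 22. In groups 1 to 4 all 10 were positive, and in 5 the FBSA libraries lay above the controls, beside 10.0% of all genes. This first class was split after the values were seen, into the 4 tested genes of groups 1 and 2, with a median of 0.61, and the 6 of groups 3 and 4, with one of 0.20. Within the hoxba cluster the values were 0.48 in hoxb2a, 0.08 in hoxb3a, −0.07 in hoxb6a, 0.27 in hoxb7a, 0.06 in hoxb8a, 0.02 in hoxb9a, −0.00 in hoxb10a and −0.53 in hoxb13a. The HOXB5 identifiers (−0.13 and 0.03) and the tested HOXC6, HOXC12 and HOXC13 identifiers (−0.10 to 0.39) could not be assigned to a cluster and are left out. Of the genes assigned to hoxca, hoxc1a stood at 0.71 and the other tested ones lay between −0.16 and 0.27. In hoxda all 7 genes lay between 0.05 and 0.33. These are descriptions of a grouping made with the values known, and the difference between the groups of members was not tested.

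By library, the median log2 difference of the group 1 and 2 genes from the control mean was 0.70, 0.85 and 0.35 in the FBSA libraries. In the control libraries it was 0.12, −0.19 and 0.07. The set was drawn with the values known, of genes whose FBSA libraries all lay above the controls, so this gap was fixed beforehand. Groups 3 and 4 are what that choice left of groups 1 to 4, so this set too was formed with the values known. Its median was 0.12, 0.19 and 0.15 with FBSA and 0.01, −0.02 and 0.02 in control, without overlap, though only 1 of its 6 members lay apart. For groups 9 to 13 the median was 0.07, −0.04 and 0.21 with FBSA and −0.01, −0.05 and 0.09 in control, with overlap. Over all 43 tested genes the median was 0.08, 0.12 and 0.20 with FBSA and −0.01, 0.02 and 0.07 in control, without overlap. Summed over the 43 tested genes the Hox reads came to 16760, 16987 and 16354 normalized counts with FBSA and to 14964, 15896 and 15414 in control.

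Marker lists of neural cell types are given beside the group 1 and 2 genes. Of 14 neural progenitor markers 13 had a positive log2 fold change, against 49.8% of all genes tested, and the median was 0.25. At an unadjusted p under 0.05, 7 were higher and 1 lower, beside 7.34% of all genes higher and 6.25% lower. At the adjusted threshold 1 rose and 0 fell, where 0.568% of all genes were higher and 0.136% lower. The one that rose was ascl1a, a proneural gene, with 1152 ± 347 normalized counts with FBSA and 565 ± 38.6 in control (SD, n = 3 each; limma adjusted p = 0.0283), a call lost under 9 of the 19 alternative settings, the omission of any library but FBSA replicate 3 among them (0.76 without FBSA replicate 2). NOTCH1 (ENSDARG00000103554), a Notch receptor gene, and SOX3, a progenitor transcription factor gene, had log2 fold changes of 0.45 ± 0.11 SE and 0.47 ± 0.11 SE and did not pass. The summed level of the progenitor list was 48115 to 49961 normalized counts with FBSA and 43743 to 49887 in control, so it overlapped.

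Of 13 neuron markers 11 had a negative log2 fold change, and the median was −0.37. At the adjusted threshold 1 fell and 0 rose, where 0.568% of all genes were higher and 0.136% lower. At an unadjusted p under 0.05, 0 were higher and 10 lower, beside 7.34% of all genes higher and 6.25% lower. The neuronal RNA-binding protein gene ELAVL4 fell to 15168 ± 2388 normalized counts with FBSA, against 23039 ± 1565 in control (SD, n = 3 each; limma adjusted p = 0.0353), a call lost under 7 of 19 settings, the omission of any library but control replicate 1 among them. The summed level of the neuron list was 48833 to 58468 normalized counts with FBSA and 68977 to 72847 in control, without overlap. FBSA replicate 2 was the lowest library of that list and the highest of the group 1 and 2 Hox genes. None of 11 motor neuron, 7 blood and 7 neural crest and pigment cell markers passed, with medians of 0.01, −0.05 and −0.01. Of 10 fast muscle markers 1 rose and 2 fell, beside 0.568% of all genes higher and 0.136% lower. At an unadjusted p under 0.05, 1 was higher and 3 lower, beside 7.34% and 6.25% of all genes. MYOD1, a myogenic factor gene, rose (a call lost under 11 of 19 settings). Both ACTA1 identifiers, actin genes, fell (calls lost under 2 settings for ENSDARG00000036371 and 3 for ENSDARG00000055618). The summed level of the muscle list was 418670 to 468469 normalized counts with FBSA and 479785 to 504090 in control. The part of these cell types in the Hox values was not tested.

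**Figure D4:**
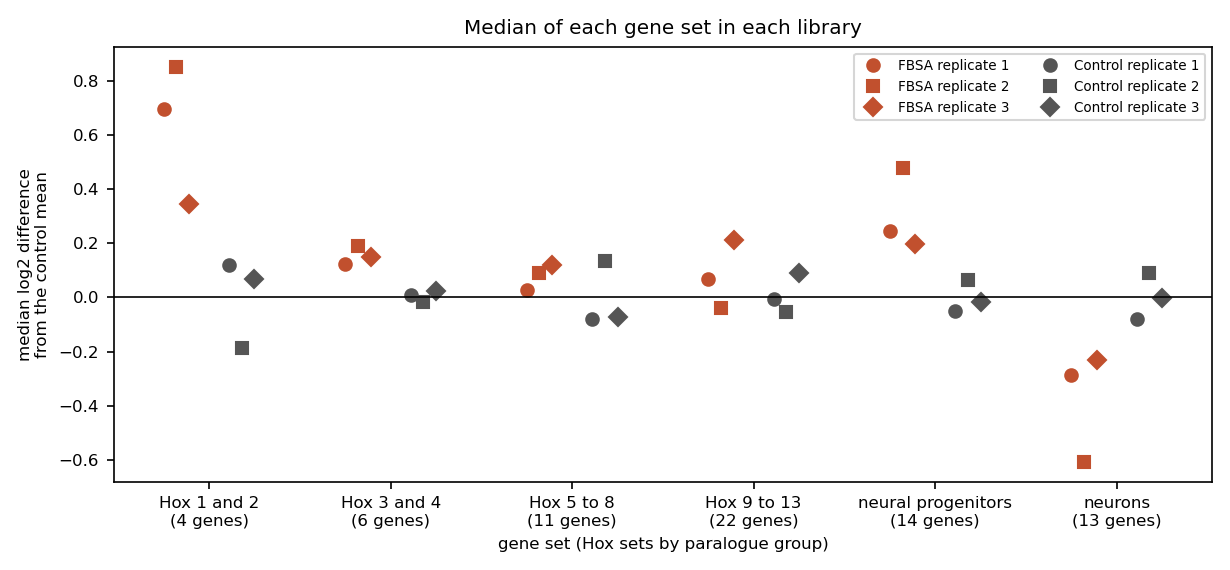
Median log2 difference from the control mean of 6 gene sets in each library, FBSA points left of control points and shapes by replicate number. The 3 FBSA libraries lie above the controls in the Hox genes of groups 1 and 2, in those of groups 3 and 4 and in the neural progenitor markers. They lie below the controls in the neuron markers, and the Hox genes of groups 5 to 8 and 9 to 13 overlap. Among lists not drawn, FBSA medians also lay above the controls in the retinoic acid and fin genes, and below in the Trithorax genes. The group 1 and 2 set was drawn after the values were seen, from genes whose FBSA libraries all lay above the controls. The set of groups 3 and 4 is what this left of groups 1 to 4.

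Genes that mark the hindbrain segments, where low-numbered Hox genes are expressed, did not pass. Of 20 tested 0 rose and 0 fell, 2 were higher and 0 lower at an unadjusted p under 0.05, beside 7.34% of all genes higher and 6.25% lower. Their median log2 fold change was 0.01. The 2 were both identifiers of IRX1, an Iroquois homeobox gene, at 0.28 ± 0.12 SE (ENSDARG00000101831) and 0.37 ± 0.16 SE (ENSDARG00000056594). The list held only irx1b, matched without its suffix, so a paralogue that is not on the list may be among them. The summed level of the hindbrain list was 9333 to 10561 normalized counts with FBSA and 8665 to 9151 in control, without overlap. By library its median difference from the control mean overlapped, at −0.03 to 0.23 with FBSA and −0.05 to 0.10 in control. Of 25 genes of retinoic acid synthesis, breakdown and reception 0 passed, and 1 was higher and 0 lower at an unadjusted p under 0.05, beside the same shares of all genes. That gene was CYP26C1, which encodes an enzyme that breaks down retinoic acid, with 778, 905 and 1085 normalized counts with FBSA and 704, 592 and 817 in control, with overlap (limma adjusted p = 0.316). The summed level of the retinoic acid list was 15120.5 to 15899 normalized counts with FBSA and 14325 to 14694 in control, without overlap. By library its median difference was 0.05 to 0.07 with FBSA and −0.03 to 0.03 in control, also without overlap. The part of either list in the Hox values was not tested.

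The Hox cofactor list held genes of the Pbx, Meis and Prep families and also tgif1 and hmx4. Of its 16 members 0 passed, while 0 were higher and 3 lower at an unadjusted p under 0.05, beside 6.25% of all genes lower. The FBSA libraries lay wholly above the controls in 0 and wholly below in 4, against 10.0% and 9.91% of all genes. The log2 fold change was positive in 9 and negative in 7. PBX3 (ENSDARG00000013615) had 7456, 5753 and 7155 normalized counts with FBSA and 8456, 8947 and 8433 in control, without overlap (log2 fold change −0.35 ± 0.11 SE, limma adjusted p = 0.185). The others were pbx1a at −0.40 ± 0.13 SE and PKNOX2, a Prep gene, at −0.53 ± 0.20 SE. The median of the 16 was 0.05.

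Among 29 Polycomb group genes 4 were higher and 3 lower at an unadjusted p under 0.05, beside 7.34% of all genes higher and 6.25% lower. The FBSA libraries lay wholly above the controls in 6 and wholly below in 6, against 10.0% and 9.91% of all genes. At the adjusted threshold, where 0.568% of all genes were higher, cbx7a rose, 0 fell and 28 did not pass. The gene cbx7a encodes a chromobox subunit of Polycomb repressive complex 1. Its FBSA libraries held 219, 739 and 222 normalized counts, against 79.7, 72.4 and 87.4 in control, and FBSA replicate 2 stood far above the other FBSA libraries. The log2 fold change was 2.04 ± 0.38 SE (limma adjusted p = 0.0307), and the call was lost under 11 of 19 settings, the omission of any 1 control or of FBSA replicate 1 among them. Another chromobox gene, cbx2, had 359, 416 and 297 normalized counts with FBSA and 266, 138 and 187 in control without overlap, and did not pass (limma adjusted p = 0.135). In the other direction cbx6a and phc2b, also subunits of that complex, had log2 fold changes of −0.36 ± 0.12 SE and −0.43 ± 0.15 SE.

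None of 21 Trithorax and H3K27 demethylase genes passed, with 0 higher and 3 lower at an unadjusted p under 0.05, beside 7.34% of all genes higher and 6.25% lower. The FBSA libraries lay wholly above the controls in 0 and wholly below in 6, against 10.0% and 9.91% of all genes. The log2 fold change was positive in 6 and negative in 15. The difference in these shares was not tested. The H3K27 demethylase gene kdm6bb had 3136, 2569 and 3397 normalized counts with FBSA and 4054, 4751 and 3982 in control (log2 fold change −0.50 ± 0.12 SE, limma adjusted p = 0.106). KMT2D and KMT2C, which encode H3K4 methyltransferases, had −0.52 ± 0.24 SE and −0.21 ± 0.10 SE, and the median of the list was −0.10. By library its median difference from the control mean was −0.14 to −0.10 with FBSA and −0.06 to 0.06 in control, without overlap.

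Of 12 tested genes on a list of ParaHox, Evx, Cdx, Gbx, Mnx and Meox homeobox genes 0 passed. At an unadjusted p under 0.05, 1 was higher and 0 lower, beside 7.34% of all genes higher and 6.25% lower. The log2 fold change was positive in 8 and negative in 4. The closest was GSX1, a forebrain and hindbrain homeobox gene related to the Hox family, with 449, 403 and 401 normalized counts with FBSA and 296, 241 and 241 in control (limma adjusted p = 0.0926). The groups did not overlap. The Hox regulator cdx4 had 19.9, 33.8 and 25.4 normalized counts with FBSA and 10.9, 19.0 and 12.5 in control, and its interval of −0.24 to 1.96 included 0. In the other direction pdx1 had 22.5, 16.9 and 14.2 normalized counts with FBSA and 26.8, 29.7 and 45.4 in control, without overlap. Its log2 fold change was −0.88 ± 0.45 SE (limma adjusted p = 0.427), and that of cdx1b was −0.44 ± 0.29 SE.

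None of 14 posterior body and tailbud genes and none of 21 paired fin and limb bud genes passed. At an unadjusted p under 0.05, where 7.34% of all genes were higher and 6.25% lower, 1 tailbud gene was higher and 1 lower. They were ripply1, a somite boundary gene, at 0.91 ± 0.32 SE and sp5l, a Wnt target, with 19.0, 9.39 and 16.3 normalized counts with FBSA against 49.5, 34.4 and 35.2 in control. Of the fin genes 3 were higher and 1 lower at that threshold, namely HAND2 (0.34 ± 0.13 SE), TBX2 (ENSDARG00000006120; 0.26 ± 0.11 SE), SALL4 (0.39 ± 0.17 SE) and the fin fold gene and1 (−0.20 ± 0.09 SE). The medians of both lists, −0.04 and 0.04, were close to that of all genes tested. By library the median difference of the fin list from the control mean was 0.02 to 0.16 with FBSA and −0.05 to 0.01 in control, without overlap.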

How the data were processed

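Per the labels, RNA of whole embryos was made into 6 QuantSeq 3′ FWD libraries (Lexogen), 3 a group. Whether the pools were separate clutches is not stated, so the p-values rest on the spread of these pools, which may be technical. STAR, GRCz11, HTSeq and DESeq2 appear, with no order or role, in the submitters' processing notes, while strand and the treatment of overlaps are not given in the sources used here. What the authors deposited were variance-stabilised log2 values for each gene. Undoing the closed form of that transformation gave reads divided by 1 size factor per library, with 100% of values no more than 0.1 from a whole number of reads. The header names stand 1 cell left of their values and were read in that order. The back-transformation and the fit were tested on simulated data.

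Genes that reached 10 normalized counts in 3 or more libraries were fitted with limma 3.58.1 in R 4.3.3 on log2(normalized count + 1), with the group as the only term and a mean-variance trend. Tests were two-sided and p-values were adjusted by the Benjamini-Hochberg method across the 16890 genes. This scale understates the change of low genes. Libraries differed from each other beyond counting noise (chi-square per degree of freedom of 10.1 or more), so none was a copy.

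Names came from a gene-name table (22817 identifiers with a symbol) and from RefSeq for GRCz12tu, whose coordinates served only to see which Hox genes overlap in that assembly and are not printed. The members, the companion and marker lists and the tests were chosen with earlier results of these data known. List symbols were matched directly or after removal of a paralogue suffix, which can add a paralogue, and symbols not matched numbered 3 for hindbrain, 3 for Polycomb, 4 for tailbud, 2 for muscle, 2 for blood and 1 for motor neurons. Open to naming were all members and, of each list, genes past the threshold or, with these, up to 4 with the smallest p. Alternatives covered the pseudocount, filter, scaling, replicate block, moderation, limma-voom, the deposited values and each library left out.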

Additional observations from a re-analysis of the deposited data

How the results depend on the processing

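The number of Hox genes past the threshold was 0 under each of the 19 alternative settings and at an adjusted p under 0.1 (limma). The median log2 fold change of the 43 genes stayed positive under each, from 0.05 with the deposited log2 values to 0.12 without FBSA replicate 2. The log2 fold changes of hoxb1b, hoxc1a, hoxa2b and hoxb2a were positive in all. The deposited values are on the variance-stabilised scale, where hoxa2b had 0.62 in place of 1.24, so their median is not directly comparable with the others. Leaving out replicate 2 of both groups, chosen after seeing the data, left hoxc1a and hoxb2a at an unadjusted p under 0.05 but not hoxb1b (log2 fold change 0.29) and hoxa2b (0.56), and hoxa2b also missed it with moderation without a trend. At that p 0 Hox genes were lower in the fit reported, 2 with moderation without a trend and 1 with total-read scaling without the most abundant gene. All genes past the threshold numbered 119 (96 higher, 23 lower), against 47 (40 and 7) with the replicate block, 0 with moderation without a trend, and 237 (179 and 58) at an adjusted p under 0.1. With libraries left out they ranged from 53 to 138, the higher from 46 to 106 and the lower from 4 to 32. Same-numbered libraries did not deviate together (correlations of 0.02, −0.14 and −0.00). With 3 libraries a group this cannot show whether the numbers mark pairs.

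No Hox gene that changed sign was past the threshold under any setting. With libraries left out the log2 fold change ranged from −0.15 to 0.35 in hoxc3a, −0.95 to 2.02 in hoxc4a, −0.20 to 0.041 in HOXB5 (ENSDARG00000013057), −0.097 to 0.13 in HOXB5 (ENSDARG00000054030), −0.39 to 0.18 in hoxc5a, −0.22 to 0.038 in hoxb6a, −0.18 to 0.13 in hoxb6b, −0.16 to 0.017 in HOXC6 (ENSDARG00000101954), −0.021 to 0.23 in hoxa9b, −0.064 to 0.081 in hoxb9a and −0.0070 to 0.30 in hoxc9a. It ranged from −0.17 to 0.090 in hoxa10b, −0.12 to 0.12 in hoxb10a, −0.25 to 0.047 in hoxc10a, −0.15 to 0.10 in HOXA11 (ENSDARG00000007009), −0.093 to 0.76 in HOXA11 (ENSDARG00000104162), −0.051 to 0.25 in hoxc11a, −0.20 to 0.32 in hoxd11a, −0.28 to 0.17 in HOXC12 (ENSDARG00000103133), −0.11 to 0.25 in hoxa13b, −0.25 to 0.10 in HOXC13 (ENSDARG00000113877) and −0.33 to 0.51 in hoxd13a. Total-read scaling gave −0.0078 in hoxb9a and −0.023 in HOXA11 (ENSDARG00000007009). Without the most abundant gene it gave −0.0048 in HOXB5 (ENSDARG00000054030), −0.016 in hoxb9a and −0.031 in HOXA11 (ENSDARG00000007009). Upper-quartile scaling gave −0.015 in the last, and limma-voom 0.013 in hoxb10a. The causes were not tested.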
